A study of Mus musculus with 10 samples.

Results

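The genes that encode potassium channels were followed in the bone of young and aged mice. They were taken as the protein-coding genes of the table whose symbol is Kcn, then letters, then a number, with 1 gene of that form left out by the rule, which gave 91 of the 38962 genes listed. RNA came from femurs of male C57BL/6J mice that had been flushed of marrow and pulverized, from 5 young mice aged 2 months and 5 aged mice aged 22 months, with 1 library per mouse and no treatment or transgene in either group. The young mice were bought from the Jackson Laboratory, while the aged mice came from the National Institute on Aging colony and were kept on in house, so the source of the mice is confounded with their age and the 2 cannot be told apart. The values are counts of reads per gene, 33447009 to 40395050 per young and 31788232 to 45075335 per aged library. All 12 osteoblast markers, which include Bglap and Col1a1, were detected and tested.

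Potassium channels are membrane proteins that let potassium ions leave or enter a cell and so set its resting potential and end its electrical signals. Voltage-gated channels open when the membrane depolarizes, and some of their subunits, called electrically silent, form no channel alone but change the behaviour of others. Calcium- or sodium-activated channels open when those ions rise inside the cell. Inward rectifiers and 2-pore-domain channels hold the resting potential, and accessory subunits bind to pores and adjust their gating or traffic. In skeletal muscle such channels repolarize the fibre after each action potential, and in lymphocytes they support calcium entry. Skeletal muscle attaches to the femur, and each channel gene was also set against the level of the muscle genes Acta1, the actin of the thin filament, and Ckm, the creatine kinase of muscle. In pulverized bone, fewer cells of a type and less RNA per cell cannot be told apart.

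The 91 genes fall into 6 classes and 20 subfamilies, on 19 chromosomes. Of them, 72 passed the filter on low counts and were tested among 22088 genes, and the other 19 had 1 to 68 counts over all libraries. A gene was called higher or lower where the edgeR adjusted p was 0.05 or less and the change 1.5-fold or more. Levels are library-scaled counts (CPM) after adjustment by the trimmed mean of M values (TMM), given as mean ± SD over 5 mice, and changes are log2 fold changes of aged over young with their standard errors (SE).

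Promoter sequence is shown for 3 genes around which the results turn, namely Kcna4 and Kcnj15, which had the largest called change in each direction, and Kcna7, which had the steepest relation to the muscle level. Each is the 250 bases before the RefSeq start on GRCm38.p6, written 5′ to 3′ in lower case with each CpG, the dinucleotide that can carry DNA methylation, in capitals. RefSeq promoters matched 66 of the 91 genes by symbol.
Kcna4 (chr2:107290339-107290588, plus strand): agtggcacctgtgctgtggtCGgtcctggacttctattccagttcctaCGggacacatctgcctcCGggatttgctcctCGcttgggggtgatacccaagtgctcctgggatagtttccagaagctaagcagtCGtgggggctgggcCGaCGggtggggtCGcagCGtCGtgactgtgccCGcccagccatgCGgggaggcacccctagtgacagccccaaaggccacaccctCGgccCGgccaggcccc
Kcnj15 (chr16:95257308-95257557, plus strand): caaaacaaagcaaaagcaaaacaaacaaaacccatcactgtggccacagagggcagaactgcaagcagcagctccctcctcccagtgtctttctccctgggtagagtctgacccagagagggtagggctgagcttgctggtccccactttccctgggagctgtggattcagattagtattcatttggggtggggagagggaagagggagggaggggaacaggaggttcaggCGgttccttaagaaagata
Kcna7 (chr7:45405710-45405959, plus strand): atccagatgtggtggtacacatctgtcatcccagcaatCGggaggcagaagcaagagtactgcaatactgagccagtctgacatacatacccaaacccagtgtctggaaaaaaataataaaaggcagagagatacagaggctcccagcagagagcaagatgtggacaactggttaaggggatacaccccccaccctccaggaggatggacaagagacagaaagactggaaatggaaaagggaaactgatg
The Kcna4 window held 14 CpG, while those of Kcnj15 and Kcna7 held 1 each. The median was 7 over the 88 promoters of the matched channel genes and 6 over all 32851 promoters. The RefSeq start of Kcna4 was not inside a GENCODE transcript of the gene, and the Kcna7 window lay inside the span that the table gives to that gene. The hexamer CAGCTG, a palindrome, was in 21.6% of the channel promoters and in 13% of all. TATAAA, searched on both strands, was in 3.41% and 12.4%. These matches describe the letters only, and neither hexamer was in the 3 sequences printed.

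With age, 4 of the 72 tested channel genes rose and 4 fell. Of all tested genes 2.64% were called higher and 2.72% lower, against 5.56% of the channel genes in each direction. Kcna4 and Kcnj6 rose most, and Kcnj15 and Kcns1 fell most. The median log2 fold change was 0.16 over the tested channel genes and 0.01 over all tested genes, and 47 channel genes lay above 0 (65.3%, against 50.9% of all genes). The median SE was 0.245 for channel genes and 0.178 for all genes. Scaled by total counts alone, the median of all genes moved to -0.16 and that of the channel genes to -0.01, with 36 above 0, and 2 channel genes were called higher and 4 lower. With the level over the 19 tested muscle markers as a covariate, the median of the channel genes was 0.05, with 38 above 0. In CPM, every aged library lay above every young library for Kcna4, Kcnj6 and Kcnc2 (4.17% of channel genes and 3.68% of all genes), and below for Kcnj15 and Kcnk1 (2.78% and 4.12%).

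**Figure D1:**
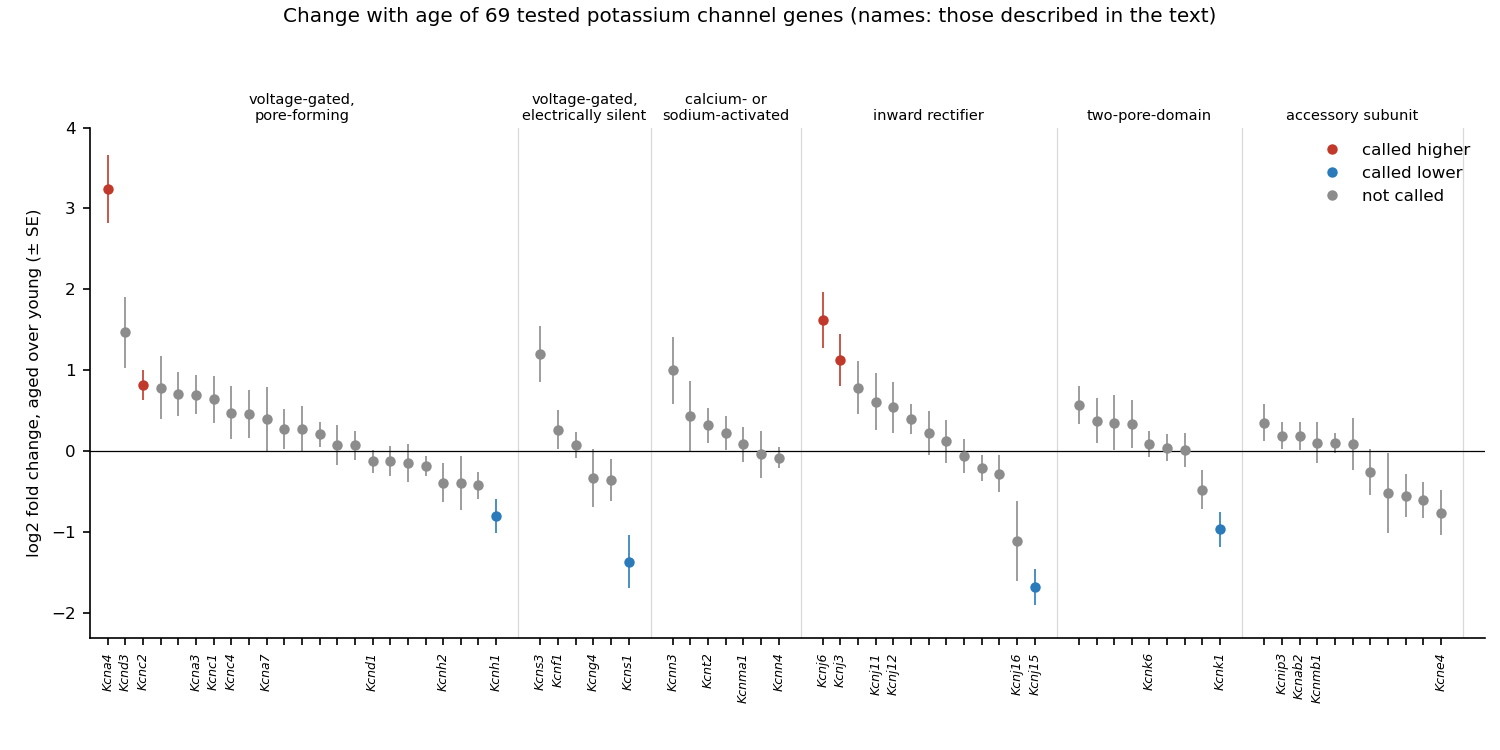
Log2 fold change of aged over young for 69 of the tested potassium channel genes, with names for those described, grouped by class and ordered by size, with bars of ± SE from the edgeR fit. Kcna4 at 3.24 stands above the rest, Kcnj15 at -1.68 is the lowest, and the 8 called genes are spread over 4 classes.

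Among the voltage-gated pore-forming genes, 2 of the 26 tested were higher and 1 was lower. Kcna4 (chr2:107290639-107298502), a Shaker family subunit that gives a fast, self-ending outward current in heart and nerve, had 0.539, 0.252, 0.347, 0.271 and 0.165 CPM in young 1 to 5 and 2.63, 1.59, 5.09, 4.22 and 1.47 CPM in aged 1 to 5. The lowest aged library was above the highest young one. On average it rose from 0.315 ± 0.141 to 3.0 ± 1.61 CPM (log2 fold change 3.24, SE 0.42, edgeR adjusted p = 8.38e-04). Kcnc2, a Shaw family subunit of rapidly firing neurons, had 1.0, 1.08, 0.867, 0.856 and 1.30 CPM in the young and 1.90, 1.67, 1.97, 1.43 and 2.08 CPM in the aged libraries. These ranges did not overlap either. Its rise was smaller, with a log2 fold change of 0.82 (SE 0.19, edgeR adjusted p = 0.0208). Its call was lost under scaling to total counts (edgeR adjusted p = 0.118), without young 2 (edgeR adjusted p = 0.0533) and without young 4 (edgeR adjusted p = 0.0609).

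Kcnh1, the ether-à-go-go channel of brain, fell. Its young libraries had 4.54, 4.13, 3.15, 4.68 and 5.28 CPM and its aged libraries 2.52, 1.65, 2.58, 2.06 and 3.77 CPM. Only aged 5 reached into the young range, where it passed young 3. The log2 fold change was -0.80 (SE 0.21, edgeR adjusted p = 0.0387), but the call was lost when any 1 of aged 1 to 4 or of young 1, 2, 4 and 5 was left out, with edgeR adjusted p between 0.0586 and 0.0859.

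Most of the pore-forming genes did not pass. Over all 26 tested, the 3 called genes included, 18 log2 fold changes were above 0 and 8 below, with a median of 0.34, and 10 had an unadjusted p under 0.05. DESeq2 called 7 and limma-voom 3. The Shaw family genes Kcnc1 (0.64) and Kcnc4 (0.48) had log2 fold changes above 0, as they did with scaling by total counts alone, but did not pass. Kcna3, the main voltage-gated channel of T cells, had 20.6 ± 6.17 CPM in young and 33.5 ± 11.1 CPM in aged bone (log2 fold change 0.70, SE 0.24, edgeR adjusted p = 0.0965). Its aged libraries ranged from 25.4 to 51.0 CPM and its young libraries from 14.7 to 27.6 CPM, so they overlapped. Kcnd3, a Shal family channel, was at 0.219 ± 0.108 and 0.628 ± 0.314 CPM (log2 fold change 1.47, SE 0.44, edgeR adjusted p = 0.0560), just outside the threshold. Kcnd1, the most abundant Shal gene per length (-0.12, SE 0.14), and Kcnh2, a channel of cardiac repolarization (-0.39, SE 0.24), had log2 fold changes below 0 that did not pass.

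Markers of T cells moved in the direction of Kcna3. Of the 10 fixed T cell markers, which include Cd3e, Cd4 and Cd8a, 3 were called higher and 0 lower, with a median log2 fold change of 1.01. Their summed level was 19.2 to 24.8 CPM in young and 27.7 to 84.0 CPM in aged libraries. Of the 8 megakaryocyte and platelet markers, 0 were called (2 at an unadjusted p under 0.05), with a median log2 fold change of 0.46. Their summed level was 306.6 to 576.3 CPM in young and 398.6 to 787.3 CPM in aged libraries. Other lists, given below, also had medians above 0. The part of any of these cell types in the level of Kcna3 was not tested.

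The inward rectifiers (Kcnj) held the remaining 2 increases and the deepest decrease. Kcnj6 and Kcnj3 encode subunits of the channels that G proteins open, and the 2 proteins can assemble together. Kcnj6 had 0.205, 0.151, 0.208, 0.125 and 0.142 CPM in the young and 0.755, 0.418, 0.683, 0.305 and 0.430 CPM in the aged libraries. The groups did not overlap, and the log2 fold change was 1.62 (SE 0.34, edgeR adjusted p = 0.0134). Kcnj3 had 0.436, 0.756, 0.659, 0.355 and 0.613 CPM in the young and 1.06, 1.02, 1.75, 0.586 and 1.77 CPM in the aged libraries. Aged 4 lay within the young range. The log2 fold change of Kcnj3 was 1.13 (SE 0.32, edgeR adjusted p = 0.0497), the weakest of the 8 calls. It was lost without any 1 library other than aged 4 (edgeR adjusted p from 0.0566 to 0.123) and with limma-voom (adjusted p = 0.0830), and 31.1% of its exon length overlaps an opposite-strand gene. No source used here says whether reads were counted by strand, so the reads of that pair are uncertain. Among the other age calls, Kcnk1 (8.0% of its length), Kcnj15 (5.3%) and Kcnj6 (5.0%) have smaller overlaps of this kind, with the same uncertainty. Kcnj6 and Kcnj3 were at low levels, which the stricter filter of 1 CPM in 5 libraries removed.

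Kcnj15 (chr16:95257558-95300260), an inward rectifier best known from kidney, fell. It had 3.49, 3.93, 6.55, 5.07 and 3.84 CPM in the young and 1.45, 1.29, 0.911, 1.59 and 1.82 CPM in the aged libraries. Every aged library lay below every young one. The mean went from 4.58 ± 1.25 to 1.42 ± 0.342 CPM (log2 fold change -1.68, SE 0.22, edgeR adjusted p = 7.69e-04). Kcnj6 and Kcnj15 lie 260 kb apart on chromosome 16 and changed in opposite directions. Over the 13 tested inward rectifiers, 8 log2 fold changes were above 0 and 5 below, with a median of 0.23, and 5 had an unadjusted p under 0.05. DESeq2 called 3 and limma-voom 2. Kcnj16 had 0.399 ± 0.202 and 0.177 ± 0.129 CPM, a log2 fold change of -1.11 that did not pass (SE 0.49, edgeR adjusted p = 0.175).

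Among the 2-pore-domain genes (Kcnk), which carry background current, 1 of 9 tested was lower and 0 were higher. Kcnk1, a weakly rectifying background channel, had 6.00, 5.87, 6.17, 6.05 and 5.45 CPM in young and 2.80, 2.95, 2.54, 1.76 and 5.06 CPM in aged libraries. The young libraries were close together, and aged 5 lay just under them while the other aged libraries were much lower. The log2 fold change was -0.97 (SE 0.22, edgeR adjusted p = 0.0191), and without young 2 its edgeR adjusted p was 0.0501. The class had a median log2 fold change of 0.09, with 7 above 0. Kcnk6, the member with the most RNA per length, was at 18.4 ± 3.93 and 19.6 ± 4.47 CPM (log2 fold change 0.09, SE 0.16).

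**Figure D2:**
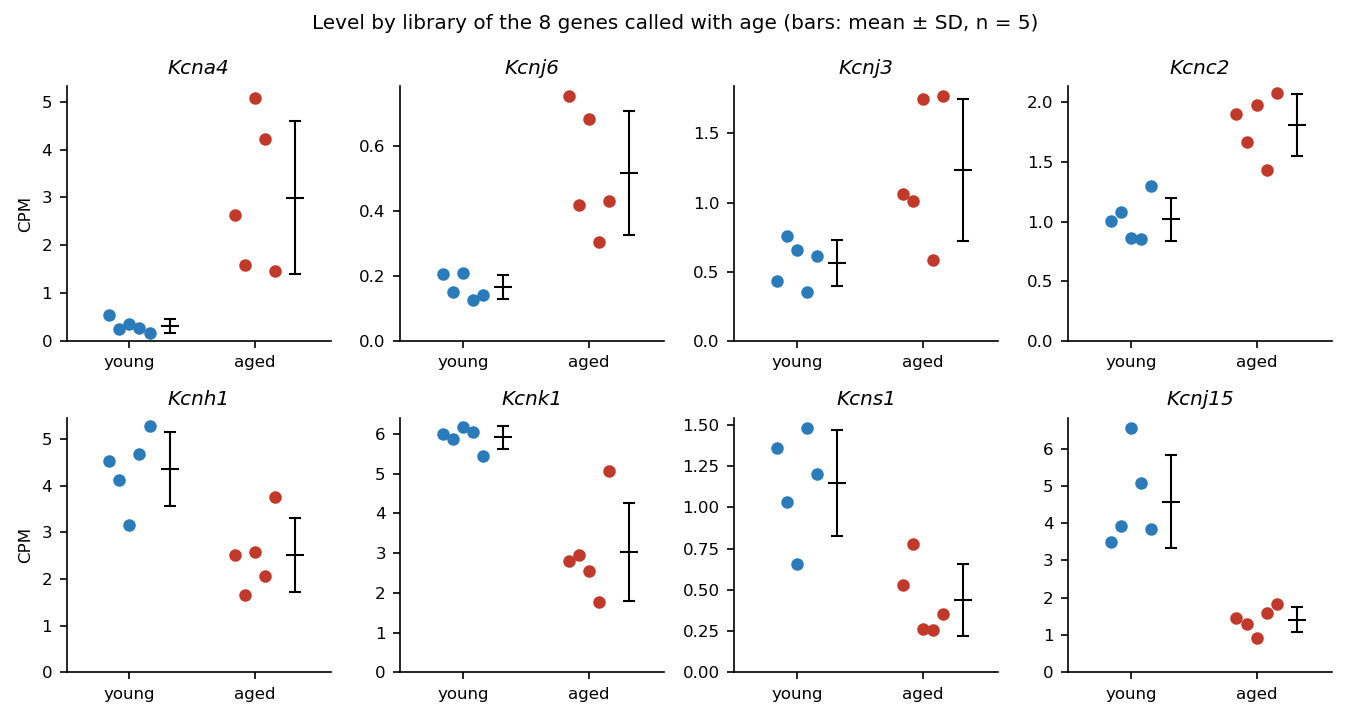
Level in CPM (linear axes from 0) of the 8 channel genes called with age, 1 point per library, with the mean ± SD of 5 mice beside each group. Kcna4, Kcnj6 and Kcnc2 are higher in every aged library, Kcnj15 and Kcnk1 are lower in every aged library, and the groups of Kcnj3, Kcnh1 and Kcns1 overlap.

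Electrically silent subunits included 1 decrease among 6 tested genes. Kcns1, a silent subunit that modifies Shab family channels, had 1.36, 1.03, 0.659, 1.48 and 1.20 CPM in the young and 0.531, 0.776, 0.266, 0.258 and 0.354 CPM in the aged libraries. Only aged 2 overlapped, since it lay above young 3. The log2 fold change was -1.36 (SE 0.33, edgeR adjusted p = 0.0239). The stricter filter removed the gene, and the call was lost without aged 3, aged 5, young 1, young 2 or young 4, with edgeR adjusted p from 0.0505 to 0.0707. Its relative Kcns3 was at 0.659 ± 0.385 and 1.53 ± 0.284 CPM, with a log2 fold change of 1.20 (SE 0.35), and just missed the threshold (edgeR adjusted p = 0.0509). DESeq2 and limma-voom each called Kcns3 higher. Kcnf1 had a log2 fold change of 0.27 (SE 0.24) and Kcng4 one of -0.33 (SE 0.36), and neither passed.

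No gene was called among the 7 tested calcium- or sodium-activated channels or the 11 tested accessory subunits. At an unadjusted p under 0.05 there were 1 and 2 genes, and DESeq2 and limma-voom called 0 in both classes. Kcnn4, the calcium-activated channel of red cells and lymphocytes, was at 66.3 ± 9.55 and 62.8 ± 9.75 CPM (log2 fold change -0.08, SE 0.13). Kcnma1, the large-conductance calcium-activated channel, was at 44.7 ± 6.10 and 47.4 ± 16.5 CPM (log2 fold change 0.08, SE 0.21). Its accessory subunit of smooth muscle, Kcnmb1, had a log2 fold change of 0.11 (SE 0.25). The sodium-activated Kcnt2 had one of 0.32 (SE 0.22). Kcnn3, a small-conductance channel, was at 1.56 ± 0.728 and 3.10 ± 1.91 CPM, and its log2 fold change of 1.0 did not pass (SE 0.42, edgeR adjusted p = 0.160). Among accessory subunits, the beta subunit Kcnab2 had a log2 fold change of 0.19 (SE 0.17), the calcium-binding Kcnip3 one of 0.19 (SE 0.16) and the single-span Kcne4 one of -0.76 (SE 0.28, edgeR adjusted p = 0.112).

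Per length of exon, a few genes held most of the channel RNA. The 8 highest took 55.6% of the summed CPM per kb of all 91 genes. Kcna3 had 10.9 CPM per kb in young and 17.6 in aged bone, Kcna7, a Shaker family gene of skeletal muscle and heart, had 11.6 and 15.3, and Kcnn4 had 13 and 12.3. The young libraries of these 3 genes overlapped each other, so their order was not resolved. By the mean over both ages, Kcnj11, the pore of the ATP-sensitive channel, was next with 6.28 and 9.62 CPM per kb, followed by the Shaw family genes Kcnc4 with 5.49 and 7.65 and Kcnc1 with 4.25 and 6.63, though in young bone Kcnab2 (4.81) and Kcnk6 (4.43) were above Kcnc1 and the libraries of these genes overlapped. By class, the summed CPM per kb of the pore-forming genes was 44.1 ± 12.8 in young and 62.0 ± 17.9 in aged libraries, and that of the inward rectifiers was 23.6 ± 5.98 and 29.3 ± 6.36. The sums of the calcium- or sodium-activated genes (18.4 and 18.5), the 2-pore-domain genes (13.8 and 13.7), the accessory subunits (9.81 and 10.2) and the silent subunits (4.83 and 4.53) moved less than their SD. The sum of the inward rectifiers also moved less than its SD, and that of the pore-forming genes by about the SD of the aged libraries. By subfamily, the Kcna sum was 25.3 ± 7.78 and 36.8 ± 10.9, the Kcnc sum 10.4 ± 4.14 and 15.2 ± 5.62, and the Kcne sum 1.35 ± 0.234 and 0.882 ± 0.192 CPM per kb. These sums are descriptions and were not tested.

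**Figure D3:**
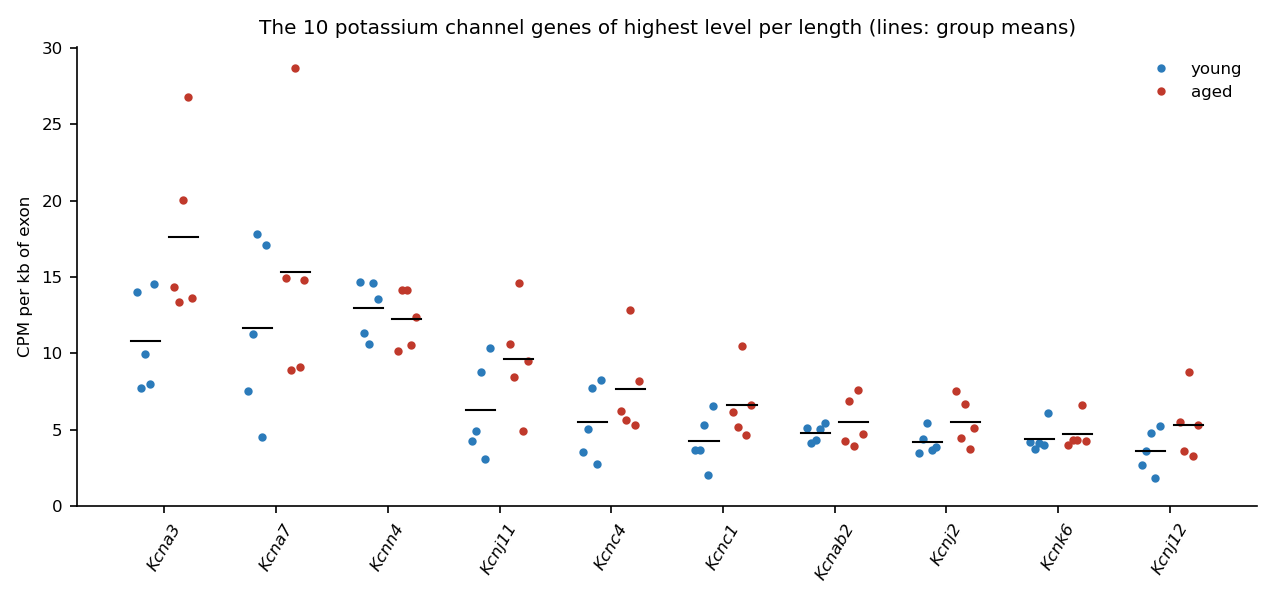
CPM per kb of exon in each library for the 10 channel genes of highest mean level, with lines at the group means (linear axis from 0). Kcna3, Kcna7 and Kcnn4 have the highest group means, and the spread between mice of 1 age is wide for Kcna7, Kcnj11 and Kcnc4.

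The levels of Acta1 and Ckm varied between mice of the same age more than they differed between ages. Acta1 was at 1843, 2726, 4097, 1383 and 3857 CPM in young 1 to 5 and at 3789, 2774, 4899, 1800 and 3561 CPM in aged 1 to 5. Its mean was 2781 ± 1196 and 3365 ± 1158 CPM (SD, n = 5; log2 fold change 0.27, SE 0.32, edgeR adjusted p = 0.622; two-sided exact permutation test, p = 0.476). Ckm was at 1042 ± 479 and 1158 ± 365 CPM (SD, n = 5; log2 fold change 0.15, SE 0.34, edgeR adjusted p = 0.806; two-sided exact permutation test, p = 0.675). The smallest p this design allows is 0.00794. Over the 20 fixed markers of skeletal muscle, 0 of the 19 tested were called (5 at an unadjusted p under 0.05, 4 by DESeq2 and 0 by limma-voom), but their median log2 fold change was 0.55 and their summed level was 10250 to 32150 CPM in young and 16190 to 42710 CPM in aged libraries. The log2 fold changes of the tested markers ran from -0.12 to 2.57. Myh7 (2.28), Tnnc1 (2.40) and Tnnt1 (2.57) had the largest, and each was highest in aged 1. The relation of these genes to the level of Acta1 and Ckm did not pass (edgeR adjusted p of 0.837 or more). Over all tested muscle markers, the mean log2 CPM was 8.5, 8.6, 9.4, 7.8 and 9.1 in young 1 to 5. In aged 1 to 5 it was 9.9, 9.3, 9.9, 8.4 and 9.5, so over these markers the ages were less alike than in Acta1 and Ckm. Young 4, aged 4 and young 1 had the least Acta1, and aged 3 had the most.

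Of the 72 channel genes, 11 increased with the muscle level and 0 decreased with it. This was tested in a fit that held age and the mean log2 CPM of Acta1 and Ckm, where a coefficient of 1 means that a gene doubled as the muscle level doubled. At an edgeR adjusted p of at most 0.05, 15.3% of the channel genes had a positive muscle coefficient, against 3.93% of all tested genes, and 0.303% of all genes had a negative one. At an unadjusted p under 0.05, 4 channel genes had a negative and 18 a positive coefficient, and limma-voom called 0 negative. The median coefficient was 0.07 for the channel genes and -0.01 for all genes. The muscle genes themselves set the covariate, while the channel genes did not enter it.

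Kcnj11, the ATP-sensitive pore known from muscle and pancreatic beta cells, had a coefficient of 1.01 (edgeR adjusted p = 1.02e-04). Its libraries were at 15.6, 18.1, 32.3, 11.5 and 38.0 CPM in young 1 to 5 and at 39.0, 31.0, 53.7, 18.2 and 35.0 CPM in aged 1 to 5. The lowest of each age, young 4 and aged 4, were also the libraries of that age with the least Acta1. Kcna7 had the largest coefficient, 1.11 (edgeR adjusted p = 5.34e-04), with 16.4, 24.6, 38.8, 9.83 and 37.3 CPM in the young and 32.5, 19.5, 62.6, 19.9 and 32.3 CPM in the aged libraries. Young 3 and aged 3, which had the most Acta1 of their ages, had the most Kcna7. Kcnj12, a strong inward rectifier of heart and skeletal muscle, had a coefficient of 0.88 (edgeR adjusted p = 6.18e-04), with 7.44, 9.92, 13.1, 5.03 and 14.5 CPM in the young and 15.2, 10.0, 24.1, 9.12 and 14.6 CPM in the aged libraries. It too was lowest in young 4 and aged 4. The Shaw family genes Kcnc4 and Kcnc1 had coefficients of 0.89 (edgeR adjusted p = 7.2e-04) and 0.77 (edgeR adjusted p = 0.00254). The calls of these 5 genes held in each of the fits that left out 1 library.

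Others with a call were the silent subunit Kcng4 (0.94, edgeR adjusted p = 0.00708), Kcna5, a Shaker family gene of the heart atrium (0.75, edgeR adjusted p = 0.0215), and the small-conductance genes Kcnn1 (0.53, edgeR adjusted p = 0.0299) and Kcnn3 (1.01, edgeR adjusted p = 0.0430). Each of these 4 lost its call when some single libraries were left out. Kcng4 lost it without young 4 (edgeR adjusted p = 0.0749). Kcna5 lost it without aged 3, aged 4, young 1, young 4 or young 5 (at most 0.110), Kcnn1 without aged 3 to 5, young 1, young 4 or young 5 (at most 0.137), and Kcnn3 without aged 2 to 4 or any 1 young library (at most 0.195). Kcng4 and Kcnn1 also lost it when the level over the muscle markers replaced Acta1 and Ckm. Kcnj2, another strong inward rectifier of muscle, had a coefficient of 0.40 that did not pass (edgeR adjusted p = 0.112). By class, the 11 genes were 6 pore-forming, 2 inward rectifiers, 2 calcium-activated and 1 silent, with none among the 2-pore-domain or accessory genes.

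**Figure D4:**
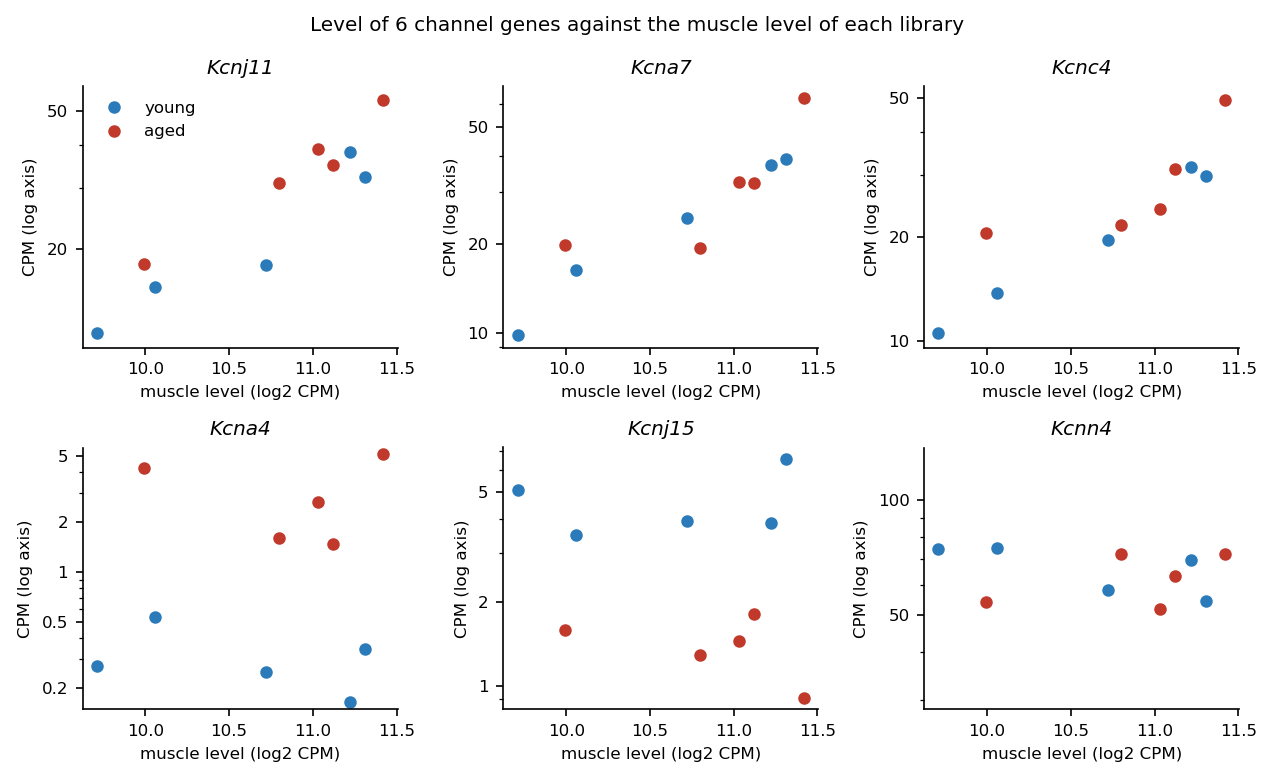
Level of 6 channel genes (CPM, log axes) against the mean log2 CPM of Acta1 and Ckm in each of the 10 libraries, blue for young and red for aged. Kcnj11, Kcna7 and Kcnc4 climb with the muscle level in both ages, Kcna4 and Kcnj15 separate by age at every muscle level, and Kcnn4 stays between 51.9 and 75.1 CPM.

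At these thresholds, the genes called with age and those called for the muscle level did not share a member. The separation depends on the threshold, since Kcnj3, called with age, had a muscle coefficient of 0.80 (SE 0.23). That was above the 0.77 of Kcnc1, which was called for the muscle level. The 8 age calls had muscle coefficients with edgeR adjusted p of 0.0709 (Kcnj3) or more, and all 8 stayed called when Acta1 and Ckm were in the fit, where Kcna4 had a log2 fold change of 3.32 and Kcnj15 one of -1.68. In that fit 6 channel genes were higher and 5 lower. Among those gained were Kcns3 (higher) and Kcne4 (lower). With the level over the 19 tested muscle markers as the covariate, by contrast, 1 gene, Kcna4, stayed higher and 3 were lower, namely Kcnj15, Kcnk1 and Kcne4. Kcnj6, Kcnj3, Kcnc2, Kcns1 and Kcnh1 lost their calls there (edgeR adjusted p from 0.0724 to 0.299), with log2 fold changes of 1.15 for Kcnj6, 0.58 for Kcnj3, 0.64 for Kcnc2, -1.18 for Kcns1 and -0.84 for Kcnh1. The 11 muscle-level genes had log2 fold changes with age from -0.33 to 1.0, with 10 above 0 and a median of 0.48, or 0.31 with Acta1 and Ckm in the fit. The median over the other 61 tested genes was 0.09.

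**Figure D5:**
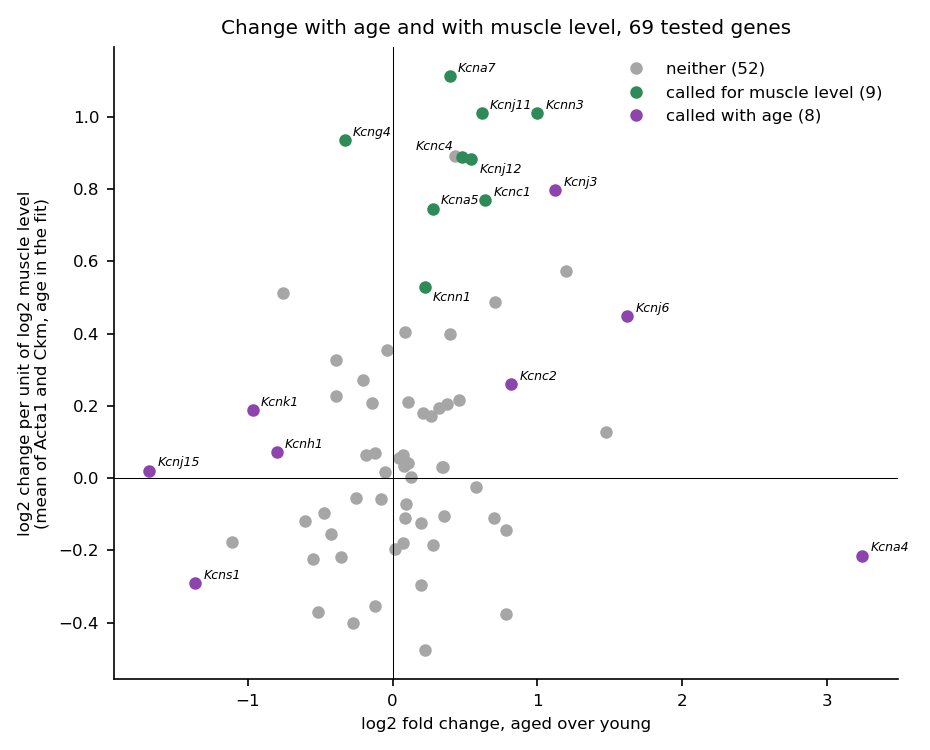
Log2 fold change with age (horizontal) against the log2 change per unit of log2 muscle level (vertical) for 69 of the tested channel genes. The 9 genes called for the muscle level that are shown lie at coefficients of 0.53 or more, and the 8 called with age lie at coefficients between -0.29 and 0.80.

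Several channel genes sit beside each other on the chromosomes. On chromosome 7, Kcna7, Kcnj14, Kcnj11 and Kcnc1 follow each other with gaps of 407, 269 and 296 kb, and 3 of these 4 were among the muscle-level genes. The exception, Kcnj14, had a coefficient of -0.14 and was at 0.402 ± 0.137 CPM in aged bone. This run was picked with its values known, and 15.3% of all tested channel genes were muscle-level genes. Whether muscle-level genes lie near each other was not tested. Kcns1 on chromosome 2 lies 304 kb from Kcnk15, a 2-pore-domain gene with 20 counts in the young and 0 in the aged libraries. Kcnk15 was under the filter and so not among the 72 tested. With no filter on low counts it was called lower (edgeR adjusted p = 0.0234). Its pooled young level was 0.101 CPM, which is 6.56-fold the 0.0154 CPM that 3 counts over all aged libraries would give. That ratio allows for the counting error of the aged libraries only. The counting error of the 20 young counts and the spread between mice are not in it, so it is no lower limit of the change. The other 18 untested genes, among them Kcnv1, Kcna10, Kcne1 and Kcnd2, were at no more than 0.244 CPM in either group.

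Other genes that move potassium were counted from fixed lists. Of 15 tested subunits of the sodium and potassium pump and its relatives, 0 were called (7 at an unadjusted p under 0.05, 1 by DESeq2 and 0 by limma-voom). Atp1b3, a pump beta subunit, had the smallest p (62.1 ± 13.2 and 42.5 ± 6.46 CPM, log2 fold change -0.54, SE 0.16, edgeR adjusted p = 0.0517). Of 14 cation-chloride cotransporters and their kinases, 2 were higher and 1 lower. Slc12a3, the thiazide-sensitive sodium chloride cotransporter, had 9.95, 12.1, 8.25, 8.31 and 7.74 CPM in young and 4.25, 3.08, 2.35, 1.90 and 2.89 CPM in aged libraries. Its groups did not overlap (log2 fold change -1.68, SE 0.20, edgeR adjusted p = 4.72e-04). Slc12a5, a potassium chloride cotransporter of neurons, rose by 0.68 (SE 0.16, edgeR adjusted p = 0.0211) and the kinase Wnk3 by 0.63 (SE 0.18, edgeR adjusted p = 0.0448) on the log2 scale.

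Of 10 tested channel partners outside the Kcn names, 1 was higher and 1 lower. Tmem38b, a potassium-permeable channel of the endoplasmic reticulum, went from 24.0 ± 3.16 to 38.8 ± 8.5 CPM (log2 fold change 0.69, SE 0.15, edgeR adjusted p = 0.0134), and Lrrc55, an accessory subunit of the large-conductance channel, from 1.57 ± 0.761 to 0.501 ± 0.292 CPM (log2 fold change -1.66, SE 0.42, edgeR adjusted p = 0.0316). Abcc9, which pairs with the Kcnj11 pore in muscle, had a muscle coefficient of 0.48 (edgeR adjusted p = 0.00153), and Abcc8, its partner in beta cells, had one of 0.60 that did not pass (edgeR adjusted p = 0.212). Of 5 tested genes of the related HCN and CNG cation channels, 2 were higher. Cngb1, a subunit of the cyclic nucleotide-gated channel of rod cells, had a log2 fold change of 0.76 (SE 0.21, edgeR adjusted p = 0.0424).

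Markers of several cell types differed between the same libraries. Of the osteoblast markers 7 of 12 were lower (median log2 fold change -1.20), with a summed level of 45510 to 96270 CPM in young and 19070 to 48140 CPM in aged libraries. Of the chondrocyte markers 6 of 10 tested were lower (median -1.95), from 697.5 to 2191 CPM in young and 385.2 to 920.8 CPM in aged libraries. Of the B and plasma cell markers 1 was higher and 3 lower of 10, and of the endothelial markers 1 of 8 was lower. Of the osteocyte markers 1 of 8 was higher, though their median log2 fold change was -0.03. At an unadjusted p under 0.05 there were 4 osteocyte markers. Those of the 4 that were not called had log2 fold changes from -1.05 to -0.58. None was called among markers of osteoclasts (median -0.49), neutrophils (0.30), macrophages (0.12), Schwann cells (0.35), smooth muscle and pericytes (0.14), megakaryocytes (0.46) and adipocytes (0.79), where each list had 0 to 3 genes at an unadjusted p under 0.05, 0 to 2 by DESeq2 and 0 by limma-voom. The neuron markers Snap25, Syt1, Nefl, Nefm and Scn9a each had a mean over the 10 libraries under 0.1 CPM. The other 5 neuron markers were not called (median 0.43, with 3 at an unadjusted p under 0.05, 1 by DESeq2 and 0 by limma-voom). Their log2 fold changes were split, with Nefh (0.43), Stmn2 (0.55) and Uchl1 (0.75) above 0 and Rbfox3 (-0.90) and Tubb3 (-0.67) below. The part of these cell types in the 8 age calls was not tested.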

How the data were processed

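RNA of 10 femurs was sequenced, 1 library per mouse. The authors trimmed reads with Cutadapt, aligned them with STAR to GRCm38.p6 and counted them with featureCounts, and the deposited values are raw counts per gene. The labels name a human build, while the identifiers are mouse Ensembl identifiers. Annotation release and strand setting: not given in the sources used here. All 91 channel genes are in GENCODE vM21, 89 with the same start and end.

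The fits used edgeR 4.0.16 (R 4.3.3). Genes passed its low-count filter (minimum count 10, minimum total 15), were scaled by TMM, fitted over the whole table by the robust quasi-likelihood test and adjusted by Benjamini-Hochberg. Each SE was obtained as |log2 fold change| over the square root of F. The muscle covariate was the mean log2 CPM (prior count 2) of Acta1 and Ckm. Libraries of 31788232 to 45075335 counts gave a median SE of 0.178. Alternatives were other scalings, filters, thresholds and covariates, DESeq2 1.42.0, limma-voom (limma 3.58.1), a replicate block and leaving out each library. The steps were tested on simulated data. No 2 libraries of a group agreed within sampling noise (chi-square of 38.2 or more per degree of freedom). Figures were made with Python 3.11.15 and matplotlib 3.10.9.

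The channel genes, lists and rules were chosen with earlier results of these data known. Named genes were the called members, the member of highest level per length in each subfamily, the 5 uncalled with the smallest adjusted p and the 5 with the largest change, those without overlap, and the 6 with the smallest p for the muscle level. Kcnj2, Kcnj14, Kcnk15, Kcna5, Kcnn1, the untested genes and the pathway genes Abcc8 and Abcc9 fall outside this rule and were chosen after their values were seen. Some single genes are not reported here, though they stay in the fits and in counts over classes or lists.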

Additional observations from a re-analysis of the deposited data

Results flagged for a closer look

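In 5 of the 60 groups of 5 libraries examined for the 30 named channel genes, 1 library lay far from the other 4. For independent groups of normal values, the limit used would flag about 1 in 20 by chance. The 60 groups share the same libraries and all 5 flagged values were high ones, so that rate may not hold here. Kcnk6, a 2-pore-domain gene, had 25.3 CPM in young 5, where the next young library had 17.4, and 27.5 CPM in aged 4, where the next aged library had 18.0. Kcnh2, a cardiac channel gene, had 4.91 CPM in aged 5 and at most 2.74 in the other aged libraries. Kcnj16 had 0.398 CPM in aged 2 and at most 0.168 in the others of that age. Kcnma1 had 55.2 CPM in young 3 and at most 43.9 in the other young libraries. None of these genes was called with age.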

How the results depend on the processing

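Of the 594 alternative values for the named channel genes, 532 kept direction and side of the threshold, 33 lost the call, 16 gained it and 13 changed sign, all 13 of them in genes without a call. With the level over the muscle markers as covariate the log2 fold change was -0.339 for Kcnma1, -0.277 for Kcna7, -0.0526 for Kcnmb1, -0.0418 for Kcnj11, -0.0332 for Kcnj12 and -0.0173 for Kcnc4, and with Acta1 and Ckm it was -0.0622 for Kcnma1. With scaling by total counts alone it was -0.0899 for Kcnma1, -0.0749 for Kcnk6 and -0.0645 for Kcnmb1. With 1 library left out it ranged from -0.0901 (without aged 1) to 0.247 for Kcnma1, from -0.0622 (without aged 4) to 0.235 for Kcnk6 and from -3.04e-04 (without young 4) to 0.306 for Kcnmb1. Kcna4 and Kcnj15 were called in all 20 alternatives (edgeR, DESeq2 or limma-voom adjusted p of at most 0.00500 and 0.00341). Kcnk1 was called in 19, Kcnj6 in 18, Kcnc2 in 16, Kcns1 in 13, Kcnh1 in 11 and Kcnj3 in 7. The count of 4 channel genes higher became 9 with DESeq2, 8 with the replicate block, 2 with scaling by total counts alone, 2 with the stricter filter and 1 with the level over the muscle markers as covariate, and 2 to 6 when 1 library was left out (2 without young 2 or young 4). The count of 4 lower became 2 at a limit of 2-fold and 1 to 4 when 1 library was left out (1 without young 2, 2 without young 1, young 4 or aged 3). The count of 11 for the muscle level became 7 with scaling by total counts alone, 0 with the replicate block and 7 to 11 when 1 library was left out (7 without young 4, 8 without aged 3, aged 4 or young 1). The cause of these shifts was not tested, other than that the stricter filter tests fewer genes. The changes of Acta1 and Ckm stayed uncalled throughout, and that of Ckm ranged from -0.0192 (without young 4) to 0.347 when 1 library was left out. The log2 ratios of the summed subfamily levels moved by less than the spread between mice when CPM replaced CPM per kb or 1 library was left out. The replicate numbers did not pair the mice, since same-numbered libraries correlated at -0.0996, 0.0424, 0.180, 0.188 and -0.0897 over 5522 genes and 1 of 5 matched best with its own number. At this depth, changes of genes under 1 CPM have wide errors, and 5 mice per group limit every call.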
